A study of Danio rerio with 4 samples.

Results

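Atrial cardiomyocytes that carried transcripts of nppb, the gene of B-type natriuretic peptide, were taken from single-cell libraries of zebrafish hearts. A barcode was kept when it held at least 3000 unique molecular identifiers (UMIs, each counting 1 captured RNA molecule) from at least 200 genes, with at most 50% of UMIs from the mitochondrial genome and under 25% from haemoglobin genes. It was called atrial when the 5 genes tnnc1b, myh6, smtnl1, mybphb and si:ch211-270g19.5 together made up at least 1% of its UMIs and at least 3 times the UMIs of the 3 ventricular genes tnni4a, myh7l and CR926459.1. It was called nppb-positive when it also held at least 2 UMIs of nppb. This gave 2544 cells of 2972 atrial cells, of 25231 barcodes within the depth, mitochondrial and haemoglobin limits and of 78127 barcodes in all. The other 428 atrial cells, with 0 or 1 UMI of nppb, are called nppb-low, and 2558 ventricular cardiomyocytes were gated the same way with both gene sets exchanged.

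The hearts came from adult zebrafish (Danio rerio, genotype AB), and the age of the fish was not given in the sources used here. All fish received an intrathoracic injection of 4-thiouridine (4sU, a uridine analogue built into new RNA) with dextran-fluorescein, under tricaine, and were operated on shortly afterwards. In the cryoinjured group a precooled probe was placed on the ventricle apex, in the sham group the pericardium was opened without the probe, and both groups were kept in water with morphine until collection at 6 h (named 6 hpci for the cryoinjured hearts and 6 hps for the sham hearts). Each group had 2 libraries, each a pool of several hearts, made from cells fixed in methanol and treated with iodoacetamide. Before fixation the hearts of all libraries were dissociated with an enzyme in a warmed, shaken solution. The paper voiced concern that dissociation could set off a response like that to injury. The part of this step in the levels below was not tested. Labeled and unlabeled RNA were counted together. The injury was thus to the ventricle, no uninjected hearts are among these libraries, and with pools a p-value measures the spread between 2 pools of a group.

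Natriuretic peptides are hormones of heart muscle. They are made as prohormones, stored in or released from cardiomyocytes, and act on guanylyl cyclase receptors to lower blood pressure and volume. In fish as in mammals the adult atrium is a main site of nppa, and nppb is known as a gene that cardiomyocytes raise under stretch and stress. AP-1 is a family of transcription factors (Fos, Jun, Atf and Jdp proteins) induced within minutes of many stimuli, and heat shock chaperones refold damaged proteins.

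The nppb-positive cells numbered 1066 and 559 in 6 hps replicates 1 and 2, and 451 and 468 in 6 hpci replicates 1 and 2. Their median depths were 15836 and 11001 UMIs at 6 hps and 8423 and 13229 UMIs at 6 hpci, and their sums held between 4502663 and 18781873 UMIs. The nppb-low cells were fewer and shallower, with 25, 55, 101 and 247 cells and median depths of 3419, 4398, 5226 and 5474 UMIs in the same order. The sum of nppb-low cells in 6 hps replicate 1 held only 91539 UMIs, so that 1 UMI there stood for 8.14 CPM (UMIs scaled to a common total). No nppb-positive barcode occurred in more than 1 library, although 84 to 293 barcodes were shared between pairs of whole libraries. The 6 hpci replicate 2 library stood apart in that 46.4% of its barcodes were over the mitochondrial limit, against 15.67% to 20.01% in the others. Levels below are CPM of the summed UMIs of a library, scaled by TMM (trimmed mean of M-values) over all sums, with libraries always in the order 6 hps replicate 1, 6 hps replicate 2, 6 hpci replicate 1, 6 hpci replicate 2.

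The gate genes are a description of the choice and were not tested. Cardiac troponin C gene tnnc1b stood at 8079, 5276, 9407 and 9836 CPM in the nppb-positive cells and at 314 to 612 CPM in ventricular cells. The atrial myosin heavy chain gene myh6 stood at 1159, 2791, 1675 and 4701 CPM against 102 to 193 CPM, and mybphb at 285 to 530 CPM against 25.7 to 50.1 CPM. Both sets of cells were muscle cells throughout, since the light chain gene myl7 reached 26141 to 38115 CPM and tnnt2a 7813 to 13802 CPM in the nppb-positive cells. Among genes the gate did not use, nppa was 2.62 to 5.01 times as high as in ventricular cells of the same library. nppa is a marker of the label that the rule did not use.

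The threshold of 1% cut through the atrial cells rather than between groups of cells. Just below it, at 0.75% to 1% of atrial gene UMIs and with the same ratio to ventricular genes, lay 508, 278, 432 and 202 cells, and in an equally wide band above it lay 512, 288, 298 and 240 cells. At equal depth 95.7%, 79.5%, 63.4% and 31.2% of the cells just below had at least 2 UMIs of nppb, against 96.5%, 77.4%, 65.1% and 32.1% of those just above. At the nppb threshold, 17, 30, 42 and 101 atrial cells had 1 UMI of nppb and 24, 25, 36 and 79 had 2. The cells at 2 UMIs had median depths of 3790, 5666, 5361 and 8753 UMIs, well below those of all nppb-positive cells.

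The nppb transcript, which chose the cells, was abundant in them and uneven between libraries. Its level was 4352, 1908, 3123 and 776 CPM in nppb-positive cells, highest in 6 hps replicate 1 and lowest in 6 hpci replicate 2, with overlapping groups (3130 ± 1728 CPM at 6 hps and 1950 ± 1660 CPM at 6 hpci, mean ± SD, n = 2 each). Ventricular cells held 1235, 906, 880 and 299 CPM, with the same libraries highest and lowest, and the ratio of nppb-positive to ventricular cells lay between 2.11 and 3.55. In nppb-low cells the level was 68.1 to 138 CPM by construction. Erythrocyte barcodes, which should not make the hormone and so show free RNA in the droplets, held 143, 71.4, 62.3 and 15.2 unscaled CPM of nppb. With haemoglobin UMIs left out of the total these levels were 322, 163, 145 and 36.4 CPM. They were then above the nppb-low cells (186, 98.1, 68.3 and 58.5 unscaled CPM, haemoglobin included) in all libraries but 6 hpci replicate 2. This order is partly set by the split, which held nppb-low cells to at most 1 UMI of nppb and put no such limit on erythrocyte barcodes.

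**Figure D1:**
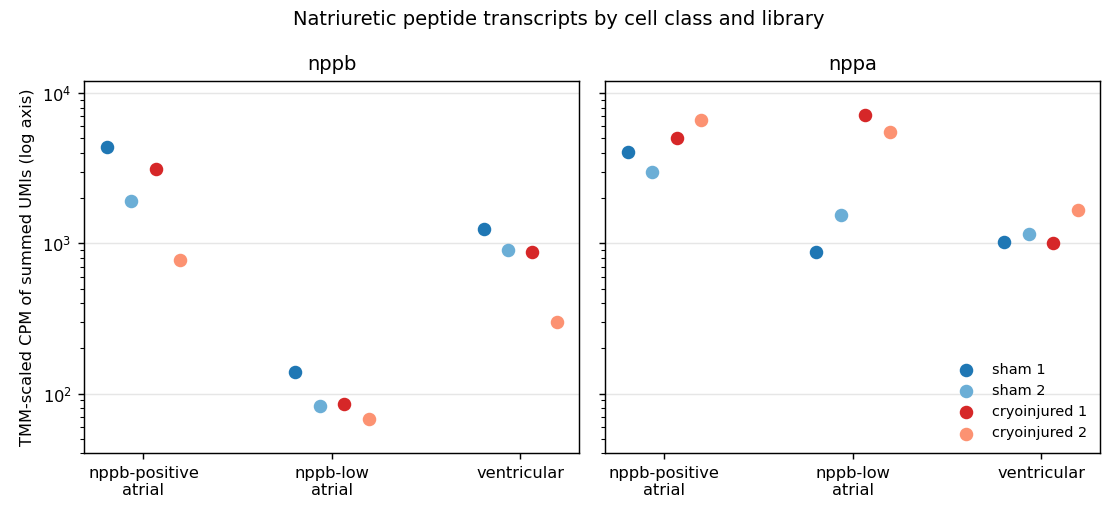
Level of nppb (left) and nppa (right) in nppb-positive atrial, nppb-low atrial and ventricular cells; each point is the summed UMIs of 1 library as TMM-scaled CPM on a log axis. In nppb-positive cells nppb ranged from 776 to 4352 CPM and nppa from 3002 to 6602 CPM, while nppa in nppb-low cells was 871 and 1539 CPM at 6 hps and 7129 and 5484 CPM at 6 hpci.

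Because a limit of 2 UMIs is easier to reach in a deep cell, every atrial cell was thinned at random to 3000 UMIs before the share of nppb-positive cells was compared between groups. The share was 94.96% (95% Wilson interval 93.5% to 96.1%) and 79.2% (75.8% to 82.2%) at 6 hps, and 68.5% (64.5% to 72.2%) and 33.0% (29.7% to 36.5%) at 6 hpci. Both 6 hpci libraries were lower than both 6 hps libraries, with means of 50.7% ± 25.1 and 87.1% ± 11.2 (SD, n = 2 each) and a difference of -36.3 percentage points. The exact two-sided permutation test over the 4 libraries gave p = 0.333, which is the smallest value that 2 libraries against 2 allow. Without thinning the shares were 97.7%, 91.0%, 81.7% and 65.5%.

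The 2 cryoinjured pools lay nearly as far apart as the means of the groups. Leaving out 6 hpci replicate 2 brought the difference to -18.6 points, and leaving out 6 hpci replicate 1 to -54.0 points. With a mitochondrial limit of 30% the shares were 94.2%, 76.0%, 78.5% and 30.3%, and the groups then overlapped (exact permutation p = 0.667). They overlapped as well when the atrial genes had to reach 2% of UMIs, with 86.1%, 78.9%, 80.0% and 21.7% of 36, 19, 20 and 83 cells (exact permutation p = 0.667). In thinned erythrocyte barcodes the share with at least 2 UMIs of nppb was 8.93%, 2.13%, 2.08% and 0.372% (median depths of 5914, 6310, 5329 and 7274 UMIs before thinning), the same direction at a far lower level. In thinned ventricular cells it was 65.5%, 46.2%, 42.3% and 11.5%, again lowest in 6 hpci replicate 2.

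**Figure D2:**
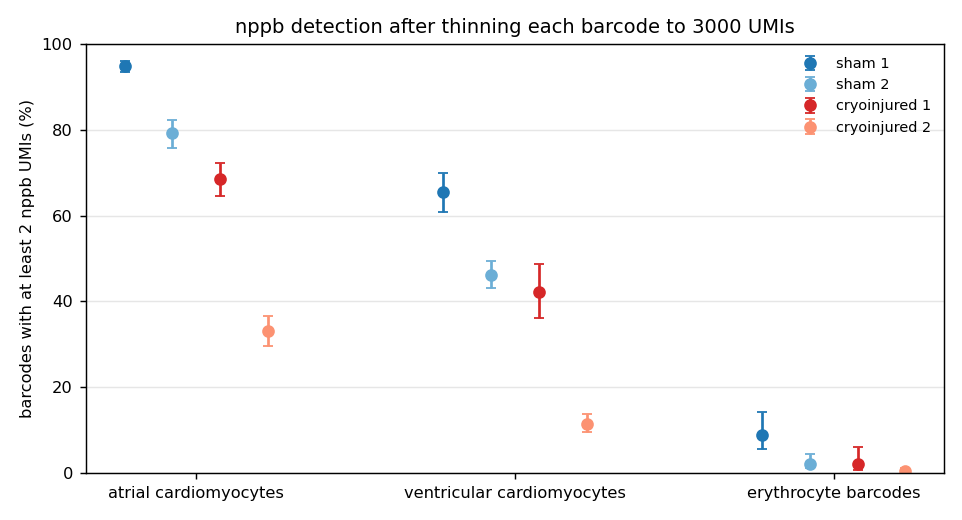
Percent of barcodes with at least 2 nppb UMIs after thinning to 3000 UMIs, for all atrial cells, ventricular cells and erythrocyte barcodes of each library; bars are 95% Wilson intervals, which cover counting error only. Atrial shares were 94.96%, 79.2%, 68.5% and 33.0%, and 6 hpci replicate 2 was lowest in all 3 kinds of barcode. In erythrocyte barcodes at least 50% of UMIs were haemoglobin and count towards the 3000.

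Within the nppb-positive cells the amount of nppb varied widely. After thinning, the median cell held 11, 5, 6 and 2 UMIs of nppb, the cell at the 95th percentile 28, 20, 26 and 5.65 UMIs, and the highest cell 60, 49, 47 and 15 UMIs. The amount of nppa was steadier, with medians of 12, 11, 13 and 14 UMIs. UMIs are counted at the 3′ end of a transcript and do not grow with its length, but whether both genes are captured equally was not tested. More UMIs of nppb than of nppa were counted in 46.5%, 21.3%, 26.8% and 3.21% of the nppb-positive cells, and nppa was detected in 98.1% to 99.0% of them.

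The injury comparison in nppb-positive cells asked which genes differed between 6 hpci and 6 hps on the sums of 4 libraries. edgeR's quasi-likelihood test with Benjamini-Hochberg adjustment called 2 of 6664 genes (0.03%), both higher at 6 hpci, and 421 genes had an unadjusted p under 0.05. The called genes were mmp13a, a collagenase, and lect2l, both of them markers of neutrophils, and they fall below the level at which genes were chosen to be named, so they are named after their values were seen. The transcript mmp13a (ENSDARG00000114451, as the symbol lies on several identifiers) stood at 0.912, 1.94, 13.5 and 20.5 CPM (log2 fold change 3.71 ± 0.53 SE, adjusted p = 0.0224), and lect2l at 3.02, 5.94, 54.7 and 32.3 CPM (3.36 ± 0.48, adjusted p = 0.0224). In both genes the 6 hpci libraries lay above the 6 hps libraries, but a handful of cells carried most of the UMIs: at 6 hpci the 5 highest cells held 85.2% and 86.2% of lect2l and 86.4% and 89.6% of mmp13a. These shares of mmp13a count all identifiers of the symbol, which held 30, 21, 59 and 115 UMIs.

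The 5 neutrophil markers, which include both called genes and lyz and consist mostly of their UMIs, summed to 6.43, 21.0, 143 and 193 CPM in the nppb-positive cells, and none of the 5 was at 0 in all libraries. When cells with 0.5% or more of their UMIs from markers of other cell types were left out, 0 genes were called and 394 had an unadjusted p under 0.05. On the cells as gated, edgeR with the replicate number as a block called 50 genes (24 higher and 26 lower). DESeq2 called 3 genes where edgeR without the block called 2. The count was decided by single pools: without 6 hpci replicate 1 it was 107 genes (51 higher and 56 lower), without 6 hpci replicate 2 it was 7, without 6 hps replicate 2 it was 3, and without 6 hps replicate 1 it was 0.

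The hormone gene nppa was not called in the injury comparison. It stood at 4056, 3002, 5041 and 6602 CPM, with both 6 hpci libraries above both 6 hps libraries (3529 ± 745 CPM and 5822 ± 1104 CPM, SD, n = 2 each), and had a log2 fold change of 0.78 ± 0.31 SE (edgeR adjusted p = 0.731). Of the other genes of the natriuretic peptide system only pam, the enzyme that amidates peptide hormones, furina, npr3 and nppc were high enough to be tested. pam stood at 6.81, 11.6, 14.8 and 20.7 CPM and was not called either (adjusted p = 0.731).

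Of the genes at a mean of at least 50 CPM whose groups did not overlap, those with the smallest unadjusted p did not pass the test, all with an adjusted p of 0.730 or 0.731. On the higher side were acta2, the smooth muscle actin gene, with 91.8, 92.2, 297 and 177 CPM, and actc1a (ENSDARG00000042535, as a second identifier has this symbol), a cardiac actin gene, with 3425, 2871, 6063 and 5326 CPM. The 5 smooth muscle markers together stood at 160, 224, 520 and 261 CPM, and their part in the value of acta2 was not tested. The same side held lyz, the neutrophil lysozyme gene, BX908782.2 and fkbp3, a gene of a prolyl isomerase. On the lower side were anxa2a, an annexin gene, with 102, 142, 42.7 and 30.01 CPM, fabp11a, which is also an endocardial marker, with 78.1, 101, 29.5 and 8.22 CPM, and rrad, a small GTPase that restrains calcium channels, with 61.3, 90.2, 34.8 and 25.4 CPM. The remaining 2 were zgc:152791 and uchl1, a ubiquitin hydrolase gene. The 5 endocardial markers together stood at 220, 251, 108 and 68.1 CPM in the same libraries, and their part in these values was not tested.

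As groups, the lists of heart genes lay on either side of the median gene, with no member called. All genes tested had a median log2 fold change of -0.03. Among AP-1 and immediate early genes 28 of 31 were below 0 (median -0.70), among heat shock chaperones 25 of 34 (median -0.36), and among inflammatory ligands and feedback genes 20 of 23 (median -0.48). fosab stood at 345, 599, 258 and 241 CPM (log2 fold change -0.86 ± 0.38 SE, adjusted p = 0.731) and jun at 199, 251, 175 and 93.2 CPM. Sarcomere genes were above 0 in 25 of 32 (median 0.52), glycolysis enzymes in 24 of 25 (0.52), creatine, myoglobin and fatty acid genes in 21 of 24 (0.48), ribosomal protein genes in 83 of 87 (0.53) and mitochondrially encoded genes in 13 of 13 (0.46). With library sizes in place of TMM factors the median of all genes moved to -0.47, so that directions near 0 depend on the scaling: AP-1 genes were then below 0 in 31 of 31, glycolysis enzymes above 0 in 14 of 25 and mitochondrially encoded genes in 7 of 13. Relative to the median gene the order of these lists stayed the same, with AP-1 genes below it (median -1.12) and glycolysis enzymes above it (0.05). Without 6 hps replicate 2, in which the heat shock gene hsp70l was highest, the median of the chaperones was -0.02 and 18 of 35 were below 0.

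The nppb-low atrial cells of the same libraries gave 0 called genes of 1426 tested (0%) in the edgeR test. DESeq2 called 1 gene, and edgeR with the replicate number as a block called 36. Without the block 146 genes had an unadjusted p under 0.05. Among them nppa had the smallest unadjusted p, at 871, 1539, 7129 and 5484 CPM (log2 fold change 2.04 ± 0.34 SE, adjusted p = 0.0703). The 6 hps values rest on 107 and 556 UMIs from 25 and 55 cells. The 6 hps and 6 hpci values did not overlap, and at 6 hpci the nppb-low cells held about as much nppa as the nppb-positive cells.

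A test of the difference between both injury differences called nppa and 1 other gene among 5469 tested (0.0366%), nppa on the lower side and the other on the higher side (0.0183% each). For nppa the injury difference was smaller in nppb-positive than in nppb-low cells, by -1.67 ± 0.29 SE on the log2 scale (edgeR adjusted p = 3.36e-05). Within libraries nppa was 4.66 and 1.95 times as high in nppb-positive as in nppb-low cells at 6 hps, and 0.707 and 1.204 times as high at 6 hpci. The call depended on the libraries and the split, since the adjusted p was 0.682 without 6 hps replicate 1, 0.632 without 6 hpci replicate 1 and 1 in DESeq2 or when cells were split after thinning, with values from -1.15 to -2.42 over all alternatives. In cells matched on depth it was -1.28 (adjusted p = 0.000203). The other gene, si:ch211-117m20.5, was named after its values were seen and is given among the results for a closer look.

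Genes other than nppb separated the nppb-positive from the nppb-low atrial cells within each library. The edgeR test with library as a block called 147 of 4151 genes (3.54%), of which 132 were higher in nppb-positive cells (3.18%) and 15 lower (0.361%). The gate genes were left out of the count. Among the lists, AP-1 and immediate early genes had the highest median, followed by dedifferentiation and cell cycle genes, heat shock chaperones and inflammatory genes. The dedifferentiation and cell cycle list held only 8 tested genes, of which 1 could be fitted in cells matched on depth. The split was made on nppb in the same cells and favours deep cells, and genes could pass the filter on low counts through the deeper nppb-positive sums alone. Values from cells matched on depth, which also use fewer nppb-positive cells, are therefore given where the gene could be fitted there. In the fit of the nppb-low sums alone 9 AP-1 and immediate early genes and 2 inflammatory genes passed the filter. That filter asks for a higher CPM, since those sums are smaller, so these counts do not show which sums admitted a gene. How far admission through the nppb-positive sums shaped the counts of higher and lower genes was not tested. nppa itself was not called between both classes (log2 fold change 0.66 ± 0.57 SE, adjusted p = 0.768), but was without 6 hpci replicate 1 (1.11, adjusted p = 0.00171).

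Among AP-1 and immediate early genes 27 of 27 tested were higher in nppb-positive cells and 17 of them were called (median log2 fold change 1.56, against 0.09 for all genes tested). The list was chosen with earlier results of these data known. How far admission through the nppb-positive sums shaped the count of 27 was not tested. fosab, a Fos gene, stood at 345, 599, 258 and 241 CPM in nppb-positive and at 8.14, 224, 24.5 and 66.8 CPM in nppb-low cells (log2 fold change 2.22 ± 0.22 SE, adjusted p = 1.06e-15). jun stood at 199, 251, 175 and 93.2 CPM against 8.14, 102, 16.3 and 29.0 CPM (2.09 ± 0.24, adjusted p = 4.01e-15). Both were higher in nppb-positive cells in 4 of 4 libraries, and in 6 hps replicate 1 the nppb-low value was a single UMI. jdp2b, which is not in the list and whose protein dimerises with Jun and represses AP-1 sites, stood at 204, 148, 185 and 63.6 CPM against 8.14, 33.2, 8.15 and 18.2 CPM (2.68 ± 0.27, adjusted p = 1.88e-19). fosl1a (2.07 ± 0.27) and junba (2.00 ± 0.29), further Fos and Jun genes, and cebpb (2.62 ± 0.40), a bZIP factor of acute responses, were called as well. In depth-matched cells 11 of 11 fitted genes of the list were higher (median 0.99), with fosl1a and junba still called. jdp2b was called there as well (2.12, adjusted p = 0.0101), while fosab (1.41, adjusted p = 0.107) and jun (1.31, adjusted p = 0.107) did not pass the threshold. With the split made after thinning 19 of 20 fitted genes of the list were higher and 12 were called. They included jun (2.08, adjusted p = 0.000704), fosl1a and junba. fosab (1.77, adjusted p = 0.1004) and jdp2b (2.18, adjusted p = 0.215) were not called with that split.

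Heat shock chaperones were higher in 29 of 31 genes and called in 11, all of them higher (median 1.01). The inducible Hsp70 gene hsp70l stood at 607, 1989, 1128 and 702 CPM in nppb-positive and at 48.8, 659, 143 and 220 CPM in nppb-low cells (log2 fold change 2.18 ± 0.17 SE, adjusted p = 2.35e-22), with 6 hps replicate 2 highest in both classes. In cells with under 0.5% of other markers its difference was 2.20, but the adjusted p was 7.88e-05. The size of its p-value thus depended strongly on the cells kept, while the difference did not. hsp70.1 stood at 386, 849, 354 and 383 CPM against 16.3, 327, 55.0 and 118 CPM (2.03 ± 0.18, adjusted p = 9.44e-23). hspb8, a small heat shock protein, stood at 69.6, 117, 53.6 and 70.21 CPM against 0, 27.7, 4.08 and 14.8 CPM (2.51 ± 0.31, adjusted p = 3.98e-13). bag3, which links Hsp70 to Hspb8 in the removal of damaged muscle proteins, stood at 114, 169, 74.5 and 103 CPM against 8.14, 24.9, 12.2 and 21.6 CPM (2.55 ± 0.28, adjusted p = 2.14e-16). hsph1 (2.52 ± 0.32), an Hsp70 exchange factor, and ahsa1a (2.42 ± 0.46), an activator of Hsp90, were called too. The abundant small heat shock gene hspb1, named for its abundance after its values were seen, was not, and stood at 2548 to 3905 CPM against 2237 to 3027 CPM.

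For hsp70l the level in nppb-low cells was from below to above that in erythrocyte barcodes. How much of the erythrocyte level of hsp70l was free RNA was not tested. Erythrocyte barcodes held 103, 515, 139 and 109 CPM of hsp70l once haemoglobin UMIs were left out of the total (unscaled). The nppb-low cells held 48.8, 659, 143 and 220 CPM, scaled by TMM. In cryoinjured replicate 1 the TMM factor of the nppb-low sum was 0.798, which raised its value. Without that factor the nppb-low level there was below the erythrocyte level, not above it. For hsp90aa1.1, an Hsp90 gene, the erythrocyte barcodes held 25.8, 27.7, 10.9 and 10.6 CPM (unscaled). The nppb-low cells held 81.4, 114, 57.1 and 91.7 CPM (TMM-scaled). In depth-matched cells 19 of 21 chaperones were higher (median 0.69) and 5 were called, among them hsp70.1 and hspb8, as was bag3 of the stretch and stress list (1.89, adjusted p = 0.0021), while hsp70l was not (1.31, adjusted p = 0.173). With the split made after thinning 24 of 26 chaperones were higher and 12 were called, among them hsp70.1 and hspb8. bag3 was called with that split too (2.05, adjusted p = 0.000107), but hsp70l was not (1.69, adjusted p = 0.204).

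The gene f3b of tissue factor, the membrane protein that starts blood clotting, stood higher in nppb-positive cells in all 4 libraries. It stood at 113, 92.8, 84.7 and 83.2 CPM in nppb-positive cells and at 0, 11.1, 4.08 and 6.07 CPM in nppb-low cells, from 2356, 765, 365 and 466 UMIs against 0, 4, 2 and 9 (log2 fold change 3.84 ± 0.36 SE, adjusted p = 3.05e-23). The nppb-low counts are under the filter minimum of 10 in every library, so the gene was tested through its nppb-positive sums, and the size of the fold depends on the handling of low counts. Its spread among the nppb-positive sums was small, and in ventricular cells its level was lower by a factor of 2.97 to 6.23 in the same libraries. With the split made after thinning the difference was 2.33 (adjusted p = 0.000107), and in depth-matched cells the gene was too low to be fitted. mcl1a, an antiapoptotic gene of the Bcl2 family, stood at 724, 789, 684 and 263 CPM against 40.7, 307, 67.3 and 59.3 CPM (2.41 ± 0.27, adjusted p = 1.95e-06). Its difference was 1.45 in depth-matched cells (adjusted p = 0.0664) and 1.72 with the split made after thinning (adjusted p = 0.1204). Without cells holding 0.5% or more of markers of other cell types mcl1a was at 2.42 and no longer called (adjusted p = 0.0688). Erythrocyte barcodes held 225, 423, 232 and 124 CPM of mcl1a without haemoglobin UMIs (unscaled), above the nppb-low level in every library. How much of that level was free RNA was not tested.

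**Figure D3:**
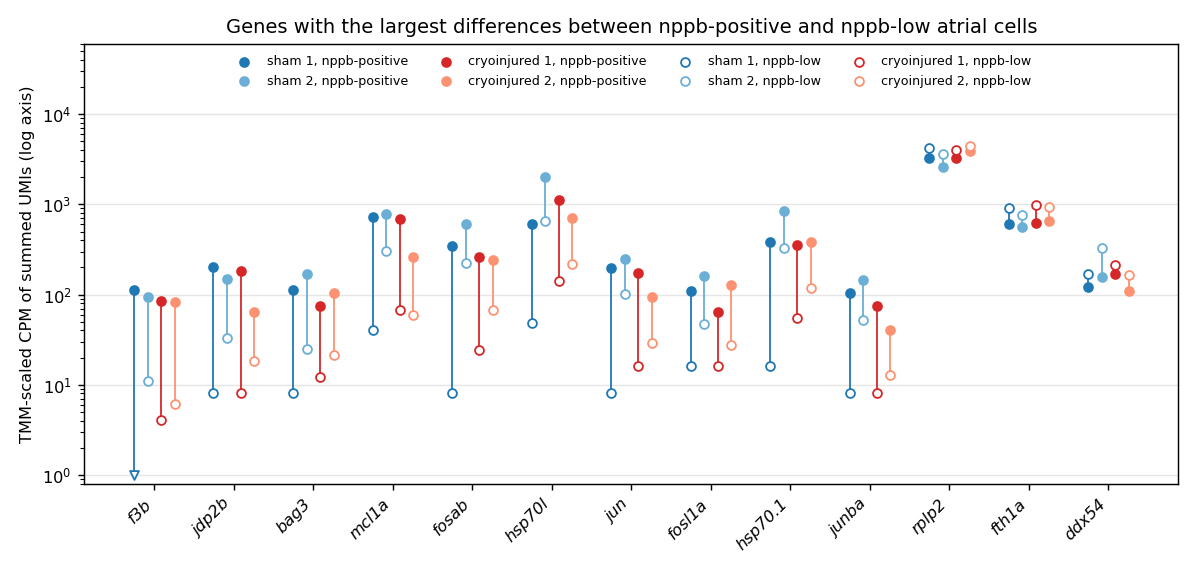
Level of the 10 called genes with the largest increase and the 3 called genes with the largest decrease in nppb-positive (filled) against nppb-low (open) atrial cells, among genes with a mean of at least 50 CPM and the same direction in all 4 libraries; each pair is 1 library on a log axis, and the triangle marks f3b at 0. hsp70l, for example, stood at 607 to 1989 CPM in nppb-positive and 48.8 to 659 CPM in nppb-low cells.

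Muscle stress genes were called in part. Of 13 tested genes of stretch and stress, bag3, cited4b and xirp1 were called (list median 0.33). cited4b, a transcription coregulator, stood at 60.3, 129, 57.5 and 23.4 CPM against 8.14, 38.8, 2.04 and 6.07 CPM (log2 fold change 2.28 ± 0.33 SE, adjusted p = 7.15e-10), and xirp1, an actin-binding protein of intercalated discs, at 128, 194, 139 and 287 CPM against 73.2, 74.7, 57.1 and 76.2 CPM (1.46 ± 0.23, adjusted p = 1.45e-08). ankrd1a, a widely used stretch marker, was close to undetected, at 0.121 to 0.893 CPM in nppb-positive cells. Of the sarcomere genes 3 of 29 were called: tcap, a titin cap gene (1.03 ± 0.17), acta1a, an alpha-actin gene (1.07 ± 0.25), and ttn.1, a titin gene (0.51 ± 0.13). The list as a whole had a median of 0.10, next to 0.09 for all genes. In depth-matched cells the differences were of about the same size but did not pass the threshold, at 0.87 for tcap (adjusted p = 0.0532), 0.99 for acta1a (0.341), 0.58 for ttn.1 (0.0557) and 1.11 for xirp1 (0.0664). With the split made after thinning tcap (0.87, adjusted p = 0.269) and acta1a (1.01, adjusted p = 0.0812) were not called. ttn.1 (0.42, adjusted p = 0.0343) and xirp1 (1.12, adjusted p = 0.000779) were.

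Of the genes of calcium handling and excitation only kcnh6a was called among 20. It encodes a potassium channel of cardiac repolarisation and stood at 164, 231, 167 and 63.6 CPM against 16.3, 130, 34.7 and 27.0 CPM (log2 fold change 1.52 ± 0.24 SE, adjusted p = 1.34e-08), and it was still called in depth-matched cells. Cardiac transcription factors were higher in 14 of 15 genes (median 0.65) with 0 called by edgeR, for example nkx2.5 at 10.2 to 52.7 CPM against 11.5 to 30.5 CPM (unadjusted p = 0.0382). In the fit of the nppb-low sums alone, with its higher CPM limit, only 6 genes of this list passed the filter. How far admission through the nppb-positive sums shaped the count of 14 was not tested. Glycolysis enzymes were lower in 16 of 23 genes (median -0.13) and none of them was called.

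Inflammatory and growth control genes followed the chaperones in direction. Of 15 tested inflammatory ligands and feedback genes 15 were higher and 6 were called, among them hbegfa, an epidermal growth factor family ligand (1.32 ± 0.37), and cish (1.16 ± 0.33) and pim1 (1.101 ± 0.345), both targets of cytokine signalling. ccl35.1, a chemokine gene, rested on low counts, at 5.54 to 21.6 CPM against 0 to 2.04 CPM. The cell cycle inhibitor gene cdkn1a also rested on low counts, at 21.9, 17.8, 18.8 and 6.97 CPM against 0, 0, 0 and 1.35 CPM. In the last of these sums 1 UMI stands for 0.674 CPM. The gene was admitted through its nppb-positive sums and was not fitted in depth-matched cells or with the split made after thinning. The stress gene gadd45ba stood at 134, 174, 228 and 95.2 CPM against 16.3, 91.4, 59.1 and 35.06 CPM (1.55 ± 0.23, adjusted p = 4.94e-09). The factors xbp1 and atf4b of the unfolded protein response were both called at 0.98 (SE 0.27 and 0.30). In depth-matched cells gadd45ba stood at 0.95 (adjusted p = 0.0682), xbp1 at 0.75 (adjusted p = 0.337), atf4b at 0.61 (adjusted p = 0.493) and cish at 1.498 (adjusted p = 0.0512), so that none of these 4 was called there. Of the inflammatory genes 5 could be fitted, 5 were higher and 0 were called by edgeR. In the fit of the nppb-low sums alone, with its higher CPM limit, only 2 genes of this list passed the filter. How far admission through the nppb-positive sums shaped the count of 15 was not tested.

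Fewer genes were called lower than higher in nppb-positive cells, at 15 against 132 of 4151 tested. With the split made after thinning 24 were called lower and 70 higher of 2150 tested, so the balance depends on the split. fth1a, the ferritin heavy chain gene, stood at 612, 554, 628 and 650 CPM against 903, 759, 995 and 934 CPM, with no overlap (log2 fold change -0.56 ± 0.14 SE, adjusted p = 0.00213). rplp2 (-0.36 ± 0.11) was the called member of the ribosomal protein genes, of which 82 of 84 were lower with a median of -0.17, and ddx54, an RNA helicase gene, was called at -0.63 ± 0.19. None of these 3 was called in depth-matched cells. With the split made after thinning all 3 were called lower, with adjusted p of 0.0174 for fth1a, 0.00645 for rplp2 and 0.0208 for ddx54. mdka, a midkine growth factor gene, was called at -1.34 ± 0.41 SE, but stood at 0.31 without 6 hpci replicate 2. Among markers of other cell types lyz and lect2l were called higher and mfap5, a fibroblast gene, lower. In cells with under 0.5% of other markers lyz was at -0.37 and no longer called, and lect2l at 1.097 (adjusted p = 0.374).

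The number of calls was lower in the smaller sets of cells. Of the 147 called genes 80 could be fitted in depth-matched cells, all 80 had the same direction, and 16 were called there, with a median difference of 0.99 where the full comparison gave 1.21. The matched cells are part of the same cells under the same nppb split, so the shared direction is no independent support. Matching cut the nppb-positive cells to 25, 55, 101 and 143, so that depth and the number of cells cannot be told apart in the lower count. DESeq2 called 82 genes, the split made after thinning 94, and the fit without 6 hpci replicate 2 called 77.

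**Figure D4:**
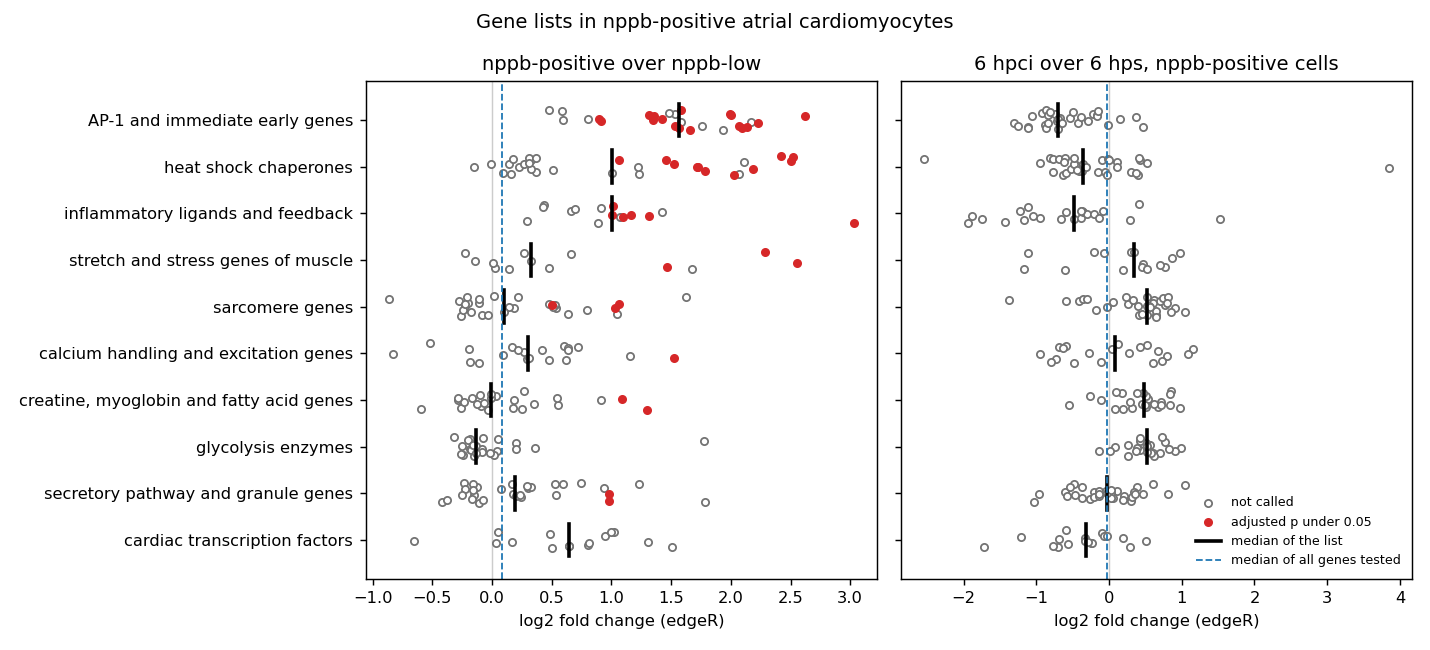
Log2 fold change of each tested gene of 10 lists between nppb-positive and nppb-low atrial cells (left) and between 6 hpci and 6 hps in nppb-positive cells (right); red points had an edgeR adjusted p under 0.05, black bars are list medians and the dashed line is the median of all genes tested. AP-1 genes had a median of 1.56 on the left with 17 called, and of -0.70 on the right with 0 called. On the left, genes could pass the filter on low counts through the nppb-positive sums alone.

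The genes hsp70l, fosab and mcl1a, which were chosen from the split on nppb in these cells, are described here over the amount of nppb after thinning. The groups still differed in depth before thinning. In the draw used for the shares, median depth was 4269, 7313 and 6023 UMIs without nppb in the first 3 libraries. It was 19595, 11243 and 9063 UMIs with 10 or more. In 6 hpci replicate 2 it was 7907 UMIs without nppb and 13621 with 5 to 9. The part of that depth in the levels was not tested. In cells thinned to 3000 UMIs and grouped by their nppb UMIs, hsp70l went from 83.3, 1550, 87.2 and 234 CPM in cells without nppb to 794, 4356 and 2192 in cells with 10 or more in the first 3 libraries. In 6 hpci replicate 2, where only 4 cells had 10 or more, it stood at 972 in cells with 5 to 9. The course was not even, since in 6 hps replicate 2 the level was 1550, 812, 1241, 2297 and 4356 CPM in cells with 0, 1, 2 to 4, 5 to 9 and 10 or more nppb UMIs. fosab ran from 0, 286, 15.6 and 100.1 to 430, 1185 and 471 (461 in cells with 5 to 9 in 6 hpci replicate 2), and mcl1a from 50, 450, 71.7 and 91.3 to 860, 1787 and 1290 (376). The sarcomere gene myl7 stayed within 22720 to 41383 CPM in all groups of at least 20 cells. cmlc1, a myosin light chain gene, went from 26053 to 41057 CPM in 6 hpci replicate 1 and stayed within 30965 to 41391 CPM in such groups of the other libraries. The group without nppb in 6 hps replicate 1 held only 20 cells.

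Across nppb-positive cells the rank correlation with thinned nppb was 0.33, 0.35, 0.58 and 0.20 for hsp70l, 0.39, 0.37, 0.48 and 0.13 for fosab and 0.41, 0.33, 0.45 and 0.11 for mcl1a (Spearman, over 1066, 559, 451 and 468 cells that share a library). It was -0.06, -0.04, 0.09 and -0.01 for myl7, but -0.05, -0.13, 0.53 and 0.01 for cmlc1, so that in 6 hpci replicate 1 a sarcomere gene reached about the value of the stress genes. For nppa it was 0.43, 0.10, 0.07 and -0.13. Over the nppb groups nppa went from 2067 to 4963 CPM in 6 hps replicate 1 and from 2175 to 3969 CPM in 6 hps replicate 2, and from 5417 to 5202 CPM in 6 hpci replicate 1. In 6 hpci replicate 2 it was 4296 CPM without nppb and 4362 CPM with 5 to 9 nppb UMIs. These are descriptions of cells within a library, in which sparse counts lower every value. After thinning, a UMI of hsp70l was seen in 57.3%, 82.3%, 55.4% and 52.8% of nppb-positive and in 12.0%, 50.9%, 16.8% and 25.9% of nppb-low cells, and without thinning in 72.3%, 93.2%, 66.5% and 78.2% of the nppb-positive cells.

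**Figure D5:**
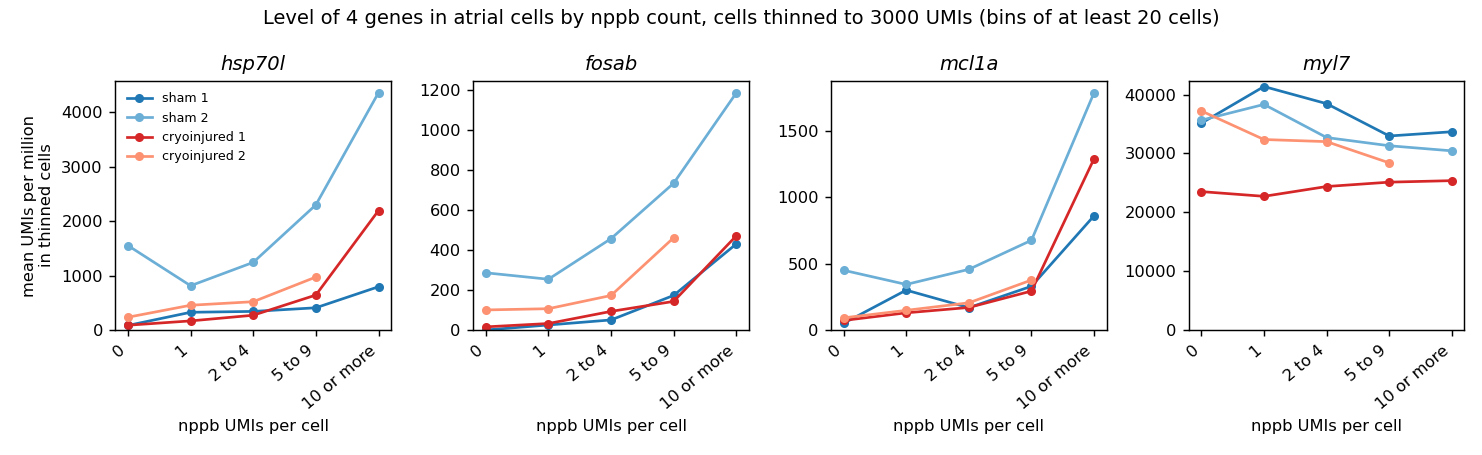
Mean level of hsp70l, fosab, mcl1a and myl7 in atrial cells grouped by their number of nppb UMIs, after thinning each cell to 3000 UMIs; lines are libraries and groups under 20 cells are left out. hsp70l in 6 hps replicate 2 went from 1550 CPM without nppb to 4356 with 10 or more nppb UMIs, while myl7 stayed within 30449 to 38343 CPM in that library.

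Against ventricular cardiomyocytes of the same libraries the nppb-positive cells differed in 1362 of 6347 genes (21.5%), 702 higher (11.1%) and 660 lower (10.4%). The gate genes are again left out, and the classes were defined by other genes of the same cells. The ventricular cells were not split on nppb and were shallower, with median depths of 5791, 8252, 5929 and 6212.5 UMIs. No depth-matched fit was run against them, so the part of depth and of the nppb limit in these differences was not tested. With library sizes in place of TMM factors the split was 873 higher and 466 lower. nppa was higher in nppb-positive cells by 1.91 ± 0.14 SE on the log2 scale (adjusted p = 3.12e-09), at 3002 to 6602 CPM against 1006 to 1659 CPM.

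The secretory pathway stood higher as a group. Of 33 tested genes of the secretory pathway and granules 33 were higher and 27 were called (median 0.90, against 0.02 for all genes), among them the endoplasmic reticulum foldase gene pdia4 (2.17 ± 0.40) and sec11a of the signal peptidase (1.88 ± 0.18). The chaperone of the same compartment, hspa5, stood at 86.2, 131, 73.1 and 78.6 CPM against 15.97, 39.4, 14.6 and 16.4 CPM (2.14 ± 0.16 SE). Between nppb-positive and nppb-low atrial cells the secretory list had a median of only 0.19, with 2 of 30 genes called. Of the AP-1 and immediate early genes 16 of 32 were called higher and 1 lower (median 0.70), with jun at 199, 251, 175 and 93.2 CPM against 34.5, 104, 52.5 and 22.2 CPM (1.88 ± 0.17). In nppb-low atrial cells jun, given above, was below the ventricular level in all libraries but 6 hpci replicate 2. Of the heat shock chaperones 17 of 35 were called higher and 4 lower. The lower ones included hspb6, a small heat shock protein of muscle, at 67.1 to 120 CPM against 431 to 590 CPM (-2.42 ± 0.16), and hspb11 (-1.77 ± 0.13).

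Of 20 tested genes of calcium handling and excitation 8 were called higher and 1 lower (median 0.37), while of 15 cardiac transcription factors 3 were called higher and 4 lower (median -0.09). kcnj5, of the acetylcholine-gated potassium channel, stood at 17.3, 34.1, 21.6 and 31.4 CPM against 1.68, 2.13, 2.33 and 1.62 CPM (log2 fold change 3.87 ± 0.24 SE), and nr2f1a, an atrial transcription factor in zebrafish, at 5.36 to 20.6 CPM against 0.294 to 2.33 CPM (3.67 ± 0.27). shox2 (4.42 ± 0.47) and bmp4 (4.71 ± 0.53), known from pacemaker tissue, were called as well, at low levels of 3.57 to 5.70 CPM and 1.97 to 5.70 CPM against 0 to 0.387 CPM and 0 to 0.194 CPM, the latter from no more than 4 UMIs in a library. Such ventricular counts are under the filter minimum, so shox2 and bmp4 were tested through their nppb-positive sums. The size of both folds depends on the handling of low counts. irx1a, an Iroquois factor of the pacemaker list, was called lower (-3.47 ± 0.27). Of 31 tested sarcomere genes 17 were called lower and 0 higher, including the ventricular myosin gene myh7 at 1.54 to 5.80 CPM against 25.2 to 104 CPM (-4.11 ± 0.22). fabp3, a fatty acid carrier, stood at 570, 608, 670 and 624 CPM against 2477, 3203, 3266 and 4283 CPM (-2.40 ± 0.13), and 12 of 24 genes of creatine, myoglobin and fatty acids were called lower and 1 higher. Of 24 glycolysis enzymes 13 were called lower and 3 higher, with aldoaa at 1037 to 1474 CPM against 2606 to 4286 CPM (-1.36 ± 0.11).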

How the data were processed

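Per the submitters' processing notes, the authors aligned 10X 3′ reads with Cell Ranger 4.0.0 on GRCz11 and deposited 1 filtered matrix of UMI counts per library, not normalized, with labeled and unlabeled RNA together. The 4 libraries held 86891164 to 136777379 UMIs in 15971 to 23000 barcodes. The members and gene lists were chosen with earlier results of these data known.

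Counts of the gated cells were summed per library and class. The sums were tested with edgeR 4.0.16 (R 4.3.3; quasi-likelihood, TMM, filterByExpr with a minimum count of 10, Benjamini-Hochberg over all genes fitted, threshold 0.05), which is the source of every adjusted p unless DESeq2 is named. Injury fits used group alone, and class fits used library as a block. The fits and the thinning were tested on simulated data. DESeq2 1.42.0 was the alternative test. Shares were compared by an exact two-sided permutation test (scipy 1.17.1) and carry 95% Wilson intervals, which cover counting error only. Thinning drew 3000 UMIs at random from each cell. The levels by nppb group and the rank correlations used another draw than the shares. Depth matching took equal numbers of both classes of a library in bins of 0.1 on the log10 UMI scale, 25, 55, 101 and 143 cells per class. Levels have 1 scaling over all 12 sums.

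No doublet caller was run. As an alternative, cells with at least 0.5% of UMIs from markers of other cell types were left out. Erythrocyte barcodes had at least 50% haemoglobin UMIs. Symbols were matched for 28965 of 31466 identifiers, and 528 symbols lay on several identifiers, whose reads may be split. No sequence is printed.

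Named were the gate genes and nppa. Of each list, all called members up to 4, otherwise the 4 with the largest change, and where none was called the 2 most abundant could be named. Per comparison and direction, the 10 called genes with the largest change at a mean of at least 50 CPM and with the same direction in all libraries, or no overlap of groups, were eligible. Where fewer than 5 were called, the 5 with the smallest unadjusted p replaced them. Alternatives were library sizes or DESeq2 size factors, no count filter, a mitochondrial limit of 30%, nppb from 1 or 4 UMIs or at 0 only in the nppb-low cells, atrial genes from 2% of UMIs, a replicate block and each library left out. All atrial cells with no nppb threshold, depth matching and thinning for the test of the difference, and a share from cells of 5000 UMIs up were added after seeing the data.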

Additional observations from a re-analysis of the deposited data

Results flagged for a closer look

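The injury difference of nppa differed between both classes of atrial cells by the test of the difference itself, at -1.67 on the log2 scale (nppb-positive minus nppb-low). The 6 hps side of the nppb-low cells rests on 25 and 55 cells, and the call was lost without 6 hps replicate 1, without 6 hpci replicate 1, in DESeq2 and when cells were split after thinning.

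The uncharacterised gene si:ch211-117m20.5 met the same test with 4.39. It stood at 5.04, 4.49, 14.1 and 21.4 CPM in nppb-positive cells and at 0, 80.3, 0 and 14.2 CPM in nppb-low cells, so that 29 UMIs in 6 hps replicate 2 carried the nppb-low value. Without that library the difference was -6.71 (edgeR adjusted p = 0.89), and in depth-matched cells it was 2.05 (adjusted p = 0.753). The cause was not tested.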

How the results depend on the processing

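Genes called at 6 hpci in nppb-positive cells numbered 2, but 0 with library sizes alone or without cells rich in other markers, 22 with no count filter and 0 to 107 when a library was left out. In nppb-low cells the count of 0 became 4 with library sizes alone or DESeq2 size factors, 1 in DESeq2, 34 with no filter and 0 to 33 when a library was left out. With the replicate number as a block the counts were 50 in nppb-positive and 36 in nppb-low cells. Same-numbered libraries deviated together with a correlation of 0.307 and 0.105. Their chi-square per degree of freedom was also the lowest, at 34.2 (replicates 1) and 31.6 (replicates 2). It was 47.3 to 72.3 between the other libraries, with 49.4 between both sham and 72.3 between both cryoinjured libraries. This value grows with the UMIs of the sums, which differed between libraries. It was not scaled for them and does not rank the pairs at equal depth. The paper's supplement speaks of a replicate pair. Yet there are only 2 pairs and the labels name no shared batch, so the numbers were not taken as a pairing. The small counts without the block are thus no measure of how few genes the injury changed. Between nppb-positive and nppb-low cells the 147 calls became 82 in DESeq2, 17 in depth-matched cells, 94 when split after thinning, and 77 to 130 when a library was left out. For the test of the difference the 2 calls became 6 with library sizes alone, 0 in DESeq2 or when split after thinning, 4 with no filter or without cells rich in other markers, 14 at a mitochondrial limit of 30%, and 1 to 11 when a library was left out. The count against ventricular cells stayed within 1.5 times under all alternatives run, and the share of nppb-positive cells kept its direction, at -54.0 to -18.6 points when a library was left out. Directions reversed for lyz between the atrial classes in cells without other markers (-0.37), for mdka (-1.87 to 0.31 when a library was left out) and for si:ch211-117m20.5 (-6.71 to 12.5). Of 570 values between the atrial classes 440 kept their direction and side of the threshold. Apart from fewer genes or cells entering a fit, the cause was not tested. Depth limits the nppb-low cells of 6 hps most, where 1 UMI in replicate 1 stands for 8.14 CPM.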
